A study of Mus musculus with 6 samples.

Results

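The data describe 9 genes whose products are used, as surface antigens or as a receptor and its ligand, to enrich or to sort spermatogonia: Itga6, Itgb1, Cd9, Thy1, Cd24a, Epcam, Cdh1, Kit and Kitl. They were chosen by symbol, through the platform annotation of the Mouse430A_2 array, and have 21 probe sets (groups of short probes that report a transcript) among the 22626 that were tested, or 9 of the 12393 named genes. None of the 21 probe sets is shared with another gene. Each value is an authors' deposited probe set summary on the log2 scale, so that a difference of 1 is a doubling.

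RNA came from mouse testis cells in 2 groups of 3 arrays. Spermatogonial stem cell samples (SSC) were cells positive for a human CD4 surface protein, isolated with magnetic beads from Stra8-CD4HAglo transgenic males, in which a shortened Stra8 promoter drives that protein, and 50 males were pooled for each preparation. Total testicular cell samples (TTC) came from the same transgenic line, so that both groups carry the transgene, and their source text names CD4-negative cells whereas their title names total cells. The labels give no age or strain and no treatment, and nothing states that the total testicular cell samples came from separate pools of animals. If they did not, the p-values measure only the spread between these samples.

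Spermatogonia sit on the basement membrane of the seminiferous tubule. They hold to its laminin through integrins, heterodimers of an alpha and a beta chain such as that of Itga6 and Itgb1, and antibodies against these chains enrich stem cell activity in transplantation assays. Cd9 encodes a tetraspanin that gathers integrins in the membrane, Thy1 a small glycoprotein held by a lipid anchor, Cd24a a lipid-anchored mucin-like peptide, Epcam an epithelial adhesion molecule and Cdh1 the calcium-dependent adhesion molecule E-cadherin. Kit is the receptor tyrosine kinase that differentiating spermatogonia acquire, and Kitl is its ligand, made in the testis by Sertoli cells. Low Kit is therefore used with the other antigens to set undifferentiated cells apart.

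The promoter table of RefSeq (build GRCm38.p6) held entries for 5 of the 9 genes, and the 250 bases before the annotated start are shown for Itgb1, the gene with a probe set past the threshold below, for Kit, and for Epcam, whose level lay on the opposite side. They lie at chr8:128685404-128685653, chr5:75574737-75574986 and chr17:87635729-87635978, each on the plus strand, and are written 5′ to 3′. Capitals mark GAGGAA, a core of ETS sites of the type that PU.1 (the factor in the title of the series) prefers, and GGGCGG, the GC box, searched on both strands together with TATAAA.
Itgb1: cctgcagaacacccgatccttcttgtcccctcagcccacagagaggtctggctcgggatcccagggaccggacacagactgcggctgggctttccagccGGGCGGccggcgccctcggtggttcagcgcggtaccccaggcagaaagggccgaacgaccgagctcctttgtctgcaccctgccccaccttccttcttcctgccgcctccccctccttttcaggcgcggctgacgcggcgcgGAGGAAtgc
Kit: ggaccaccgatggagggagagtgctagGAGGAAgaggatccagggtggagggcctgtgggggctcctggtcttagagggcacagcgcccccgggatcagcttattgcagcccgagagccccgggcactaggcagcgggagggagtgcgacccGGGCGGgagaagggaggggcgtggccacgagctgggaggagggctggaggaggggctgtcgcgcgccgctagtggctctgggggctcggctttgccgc
Epcam: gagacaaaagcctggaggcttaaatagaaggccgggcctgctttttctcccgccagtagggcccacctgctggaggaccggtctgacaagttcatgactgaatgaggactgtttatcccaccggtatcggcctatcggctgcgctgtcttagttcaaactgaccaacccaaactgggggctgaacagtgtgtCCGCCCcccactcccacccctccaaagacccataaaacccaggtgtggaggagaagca
GAGGAA or its reverse complement stood in the Itgb1 window, with its first base 9 bases before the start, and in the Kit window, 223 bases before it, while the windows of Epcam, Cd9 and Kitl held none. Among all 32851 promoter windows of this length, 23.3% held it. The GC box stood in the windows of all 5 genes (6 of 6 windows, since Kit has a second start with an overlapping window), against 32.7% of all windows. Those 6 windows held 56.4% to 70.8% G and C, beside a mean of 53.2% over all windows. The 32.7% was not adjusted for this, so the counts do not show an enrichment. TATAAA stood in the window of Kitl alone, against 12.4%. A match describes letters in the window and is not evidence of binding.

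Background was set at 2.15 on the log2 scale, the 95th percentile over 27 control probe sets for bacterial transcripts, and 79.7% to 84.1% of an array exceeded it. SSC array 1 stood apart: on the leading axis of a principal component analysis, which held 72.9% of variance, it scored 78.7, SSC arrays 2 and 3 scored 18.8 and 15.3, and TTC arrays −45.3 to −29.3. Its hybridization controls, spiked at a fixed amount, were also the brightest, at 8.96 against 8.37 to 8.51 on the other arrays. The difference between the 3′ and 5′ probe sets of actin was 0.41 to 0.58 in the SSC arrays and 0.24 to 0.45 in the TTC arrays. That of Gapdh was −0.45, −0.43 and 0.09 on SSC arrays 1, 2 and 3, against −0.19 to −0.04 in TTC. The arrays were washed in 3 fluidics rounds: round 1 held SSC array 1 with TTC arrays 1 and 3, round 2 held SSC array 3 alone, and round 3 held arrays numbered 2 of both groups. A fit with the round as a block therefore compares the groups without SSC array 3. Only fluidics module 2 held both groups, as SSC array 2 and TTC array 3, so a module block compares those arrays alone. In whole-cell RNA, fewer cells of a type and less RNA per cell cannot be told apart.

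Of the 21 probe sets, 1 rose and 0 fell in the SSC arrays by limma at an adjusted p under 0.05, namely 1 of the 6 probe sets of Itgb1. That is 4.76% of them, beside 1.4% of all probe sets called higher and 0.15% called lower. At an unadjusted p under 0.05, 9 were higher (42.9%, beside 11.4% of all) and 1 was lower (4.76%, beside 12.1%). Several of the 9 read the same gene, Itgb1: 1452545_a_at, 1426918_at, and the dim 1427771_x_at and 1426919_at. Taken by brightest probe set, 4 of the 9 genes were higher (beside 11.8% of all genes) and 1 was lower (beside 13.1%). The 9 probe sets became 5 without TTC array 3, where 1840 of all probe sets were higher and 1321 lower. With each array centred on its median they also became 5, where 1890 of all probe sets were higher and 4644 lower. The 3 stem cell values lay above all 3 others for 8 probe sets, 4 of them of Itgb1 (38.1%, beside 13.5% of all probe sets). They lay below the others for 1, that of Epcam (4.76%, beside 17.5%). The count of 1 became 2, 3 and 5 without SSC arrays 1, 2 and 3, and 0 without any 1 of the TTC arrays. The median difference was 0.25 over the 21 probe sets and −0.03 over all probe sets. Only 13 of the 21 were above background on every array, 5 were at or below it on every array and 3 were mixed, so a change in the dimmest 8 could be missed.

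**Figure D1:**
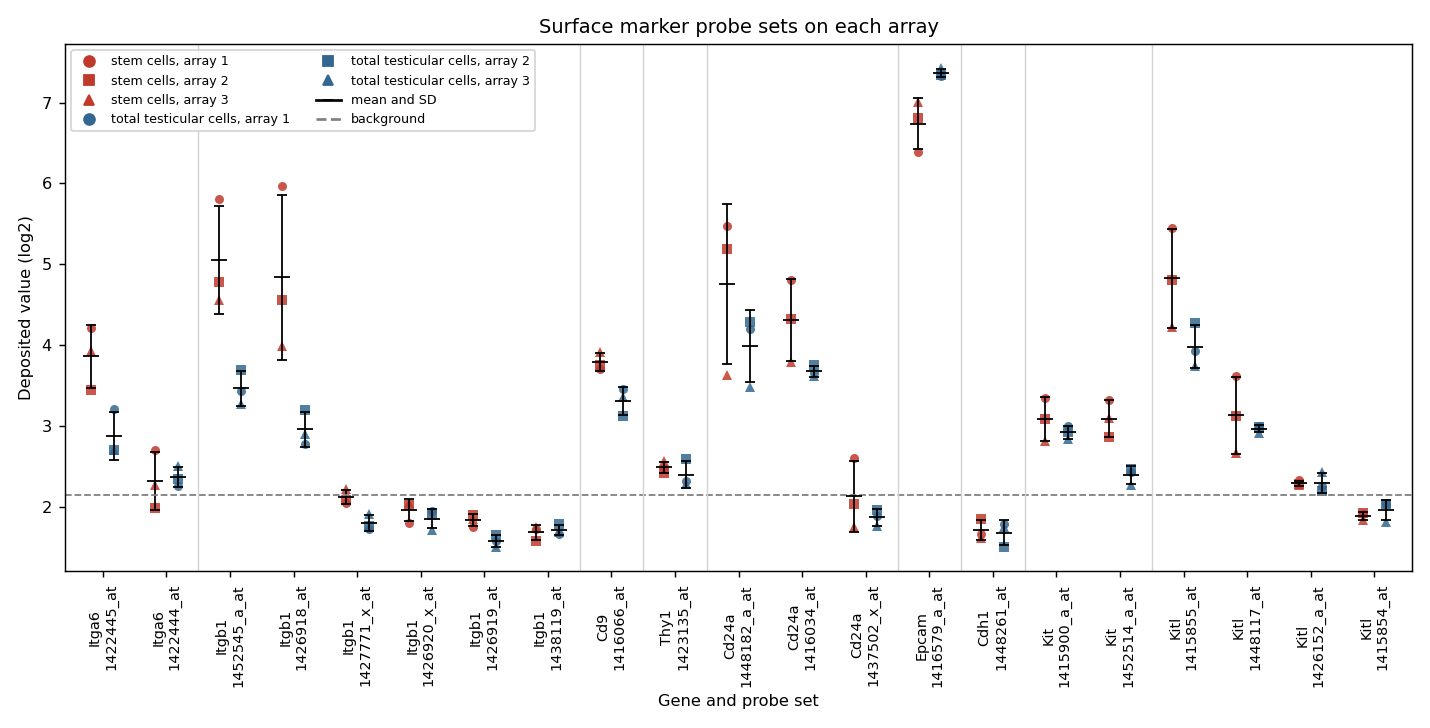
Deposited log2 values of all 21 probe sets on each array, stem cells (red, left of each pair) and total testicular cells (blue), with the mean and SD of 3 arrays in black and the background of 2.15 dashed. The bright Itgb1 probe sets separate the groups most widely, Epcam is the probe set with all stem cell values below the others, and the values of Cdh1, Kitl 1415854_at and 3 of the Itgb1 probe sets all lie under the dashed line.

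Itgb1, the beta chain shared by most laminin- and fibronectin-binding integrins, read higher in every SSC array on both of its probe sets that exceed background. On probe set 1452545_a_at its values were 5.81, 4.78 and 4.56 on SSC arrays 1, 2 and 3 and 3.43, 3.70 and 3.28 on TTC arrays 1, 2 and 3. The groups did not overlap and were 0.86 apart at their nearest values. The level averaged 5.05 ± 0.67 in the SSC arrays and 3.47 ± 0.21 in the TTC arrays (SD, n = 3 each), so that the SSC arrays were 2.99-fold higher (log2 difference 1.58 ± 0.31 SE, adjusted p = 0.0470 by limma). It was 1.20 without SSC array 1 (adjusted p = 0.0168). Without TTC array 1, 2 or 3 the difference was 1.56, 1.69 and 1.48 and did not pass (adjusted p = 0.215, 0.131 and 0.231). Nor did it pass after quantile normalization (1.54, adjusted p = 0.0566) or without an intensity trend (adjusted p = 0.0621). With the fluidics module as a block it was 1.50, which is SSC array 2 minus TTC array 3.

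The second bright Itgb1 probe set, 1426918_at, gave 5.97, 4.56 and 3.99 on the SSC arrays against 2.78, 3.20 and 2.90 in TTC. Here too every stem cell value lay above every other value, with array 1 far above arrays 2 and 3. The difference of 1.88 ± 0.43 (SE), 3.67-fold, did not pass with all arrays (adjusted p = 0.0645), and passed without SSC array 1 (1.31, adjusted p = 0.0237) or without SSC array 3 (2.30, adjusted p = 0.00964). With the fluidics round as a block, which likewise leaves SSC array 3 out of the comparison, it also passed (2.37, adjusted p = 0.0156). So it did with array weights (1.74, adjusted p = 0.0145) and after centring on hybridization controls (1.71, adjusted p = 5.30e-07). That last p-value comes from a moderated fit, which shares variance across probe sets, and how far it rests on that sharing was not tested. An ordinary unmoderated test on the values as deposited gave an adjusted p of 0.314. Within fluidics round 1 the difference was 3.13 on this probe set and 2.45 on 1452545_a_at, and within round 3 it was 1.35 and 1.08.

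The other 4 Itgb1 probe sets were dim, with all values but 1 below background. On 1427771_x_at and 1426919_at every SSC value still lay above every TTC value, with differences of 0.32 and 0.25 that did not pass (adjusted p = 0.118 and 0.132). On 1426920_x_at and 1438119_at the groups overlapped, with differences of 0.10 and −0.03. Averaged over its 6 probe sets, Itgb1 differed by 0.68 ± 0.14 (SE, adjusted p = 0.0632).

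Itga6, the laminin-binding alpha chain, read 4.21, 3.44 and 3.94 on the SSC arrays and 3.22, 2.71 and 2.71 on the TTC arrays with probe set 1422445_at. The groups were separate by 0.23. TTC arrays 2 and 3 held the identical deposited value for this probe set, as they did for 153 of all probe sets. The difference was 0.99 ± 0.24 (SE), 1.98-fold, with a 95% interval of 0.45 to 1.53, and missed the threshold (adjusted p = 0.0739). With the fluidics round as a block it passed (1.03, adjusted p = 0.0490), and it also did without SSC array 2 (1.20, adjusted p = 0.0339).

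The dimmer Itga6 probe set, 1422444_at, gave 2.71, 1.99 and 2.28 against 2.26, 2.34 and 2.51 in TTC. These values straddle background and overlap, and the difference was −0.05 ± 0.18 (SE, adjusted p = 0.906).

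Cd9, the tetraspanin, read slightly higher in all SSC arrays, without passing. Its single probe set read 3.70, 3.76 and 3.92 on the SSC arrays and 3.46, 3.13 and 3.36 on the TTC arrays. All 3 stem cell values exceeded all others, by at least 0.24, and here array 3 rather than array 1 was the highest. The difference was 0.48 ± 0.17 (SE, 95% interval 0.08 to 0.87, adjusted p = 0.151).

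Thy1, the antigen most used to enrich mouse spermatogonial stem cells, did not separate the groups. Its probe set read 2.48, 2.43 and 2.56 on the SSC arrays and 2.32, 2.59 and 2.29 on the TTC arrays, all close to background. The difference was 0.09 ± 0.13 (SE, adjusted p = 0.728), and its 95% interval, −0.21 to 0.39, lies below 1, although a signal this close to background understates change.

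Cd24a, an antigen carried by many blood and epithelial cells as well as germ cells, varied widely among the SSC arrays. Probe set 1448182_a_at gave 5.47, 5.19 and 3.63 against 4.20, 4.29 and 3.49 in TTC. SSC arrays 1 and 2 lay above all TTC values, whereas array 3 lay below 2 of them. The difference was 0.77 ± 0.44 (SE, adjusted p = 0.319), with an SD of 0.99 in the SSC arrays and 0.44 in the TTC arrays (n = 3 each). Without SSC array 3 it was 1.34 and passed (adjusted p = 0.0216). The fluidics round as a block, which likewise leaves SSC array 3 out of the comparison, gave 1.31 (adjusted p = 0.0423). With the fluidics module as a block it was 1.70, which is SSC array 2 minus TTC array 3.

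The second Cd24a probe set, 1416034_at, kept the same array order, with 4.81, 4.33 and 3.79 against 3.66, 3.76 and 3.62 in TTC. The groups were separated by only 0.03, and the difference of 0.63 ± 0.25 (SE) did not pass (adjusted p = 0.177), but did without SSC array 3 (0.89, adjusted p = 0.0382). The third, 1437502_x_at, was above background on SSC array 1 alone and differed by 0.26 (adjusted p = 0.438).

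Epcam, the epithelial adhesion molecule that spermatogonia also carry, was the member with the groups separated in the opposite direction. It read 6.39, 6.81 and 7.01 on the SSC arrays and 7.33, 7.33 and 7.43 on the TTC arrays. Every stem cell value lay below every other value, and array 1 was the lowest. The level averaged 6.74 ± 0.32 in the SSC arrays and 7.37 ± 0.05 in the TTC arrays (SD, n = 3 each). The difference of −0.63 ± 0.18 (SE, 95% interval −1.04 to −0.21), 1.55-fold lower, missed the threshold (adjusted p = 0.103) and passed without SSC array 3 (−0.76, adjusted p = 0.0431). Within round 1 it was −0.99 and within round 3 −0.52.

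Cdh1, which encodes E-cadherin, was at or below background on every array. Its values were 1.67, 1.86 and 1.62 in the SSC arrays and 1.79, 1.50 and 1.76 in the TTC arrays. No statement on a change can rest on them (difference 0.04, adjusted p = 0.870).

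**Figure D2:**
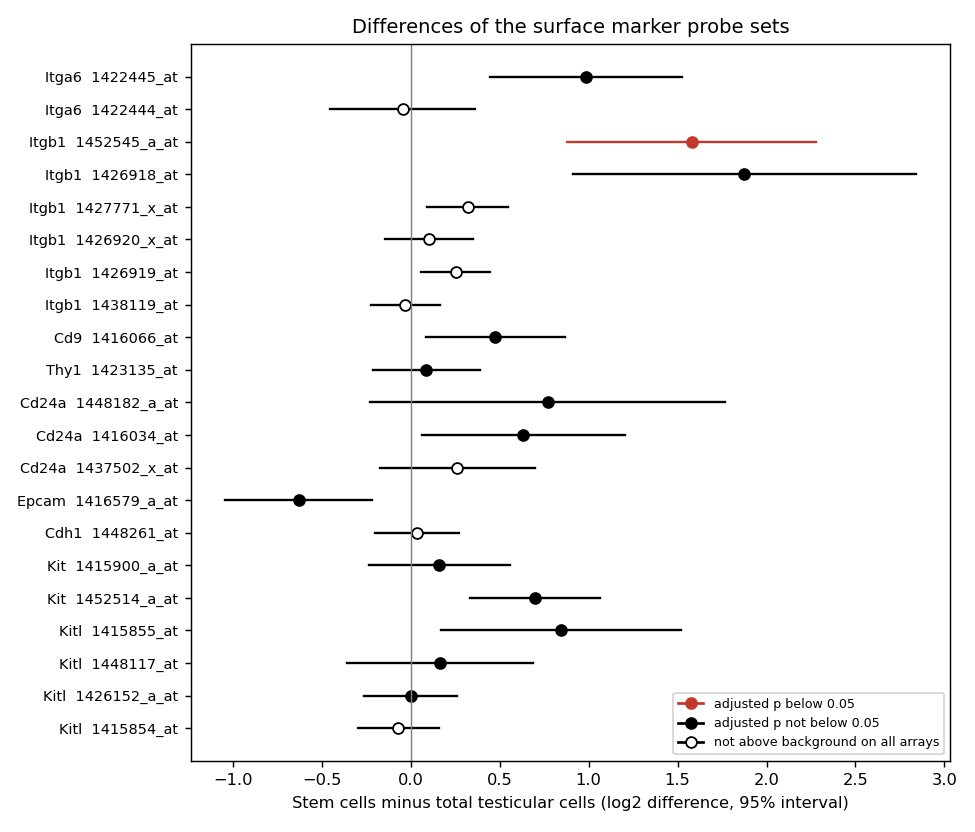
Log2 difference, stem cells minus total testicular cells, with its 95% interval for each of the 21 probe sets, filled where the probe set was above background on all 6 arrays. Only Itgb1 1452545_a_at (red, 1.58) passed, and Epcam (−0.63) is the one member whose interval lies wholly below 0.

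Kit, the receptor that marks the onset of differentiation, was not lower in the SSC arrays on either probe set. Probe set 1452514_a_at read 3.32, 2.86 and 3.10 in the SSC arrays and 2.44, 2.48 and 2.27 in the TTC arrays. The groups were 0.38 apart, though all values were low. The difference was 0.70 ± 0.16 (SE, 95% interval 0.33 to 1.06), 1.62-fold, and missed the threshold (adjusted p = 0.0655), passing without SSC array 2 (0.82, adjusted p = 0.0355).

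The other Kit probe set, 1415900_a_at, gave 3.35, 3.09 and 2.82 against 3.01, 2.93 and 2.85 in TTC. The values overlap, and the difference was 0.16 ± 0.18 (SE, adjusted p = 0.617). Which Kit transcripts each probe set reads was not analysed here.

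Kitl, the ligand, was read by 4 probe sets that gave different pictures. The brightest, 1415855_at, gave 5.45, 4.81 and 4.23 in the SSC arrays and 3.93, 4.27 and 3.75 in the TTC arrays. SSC arrays 1 and 2 exceeded all TTC values, and array 3 lay just below the highest of them. The difference was 0.85 ± 0.30 (SE, adjusted p = 0.144), and without SSC array 3 it passed (1.15, adjusted p = 0.0307). Probe set 1448117_at gave 3.62, 3.12 and 2.67 against 3.01, 2.99 and 2.92 in TTC, in the same array order but with array 3 lowest of all, a difference of 0.16 (adjusted p = 0.708). The remaining probe sets, 1426152_a_at and 1415854_at, lay close to or below background and differed by 0.00 and −0.07.

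Of the 13 probe sets above background on every array, 8 decreased in the order SSC array 1, 2, 3. These are the bright probe sets of Itgb1, both of Cd24a, 1 of Kit and 3 of Kitl, and the Epcam level ran the opposite way. Of these, Kitl 1426152_a_at fell only from 2.33 to 2.28, close to background. The share of all probe sets with this order was not counted, so the 8 cannot be read as particular to the members. The macrophage marker list also decreased from SSC array 1 to array 3. All 11 of its genes were measured, 8 rose and 0 fell, and its median difference from the TTC mean was 4.82, 3.46 and 3.01 on SSC arrays 1, 2 and 3. Its summed linear signal was 8459, 3071 and 2316 in the SSC arrays, against 252 to 361 in TTC. Csf1r (4.76), Lyz2 (4.69), Mrc1 (4.41) and C1qa (4.38) led it, and none of its genes was below background on all arrays.

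The Leydig cell list followed the same array order, with medians of 2.91, 1.86 and 0.82 and a summed signal of 3212, 1577 and 774 against 258 to 615 in TTC. Of its 5 measured genes 0 passed by limma and 5 were higher at an unadjusted p under 0.05, with Cyp17a1 (1.92) and Cyp11a1 (1.64) the brightest. Differences from the same mean were 3.01, 1.60 and 1.03 for Itgb1 1426918_at, 1.48, 1.19 and −0.36 for Cd24a 1448182_a_at, 1.46, 0.83 and 0.24 for Kitl 1415855_at and −0.98, −0.55 and −0.36 for Epcam. The part of these other cells in the differences was not tested. Array order differed for Itga6 1422445_at (1.34, 0.57 and 1.06) and Kit 1452514_a_at (0.93, 0.47 and 0.71), which were lowest on SSC array 2. So was Stra8, the gene whose promoter drives the sorting protein, at 5.61, 4.80 and 5.77 against 4.42, 4.54 and 4.20 in TTC (difference 1.01, adjusted p = 0.0832).

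**Figure D3:**
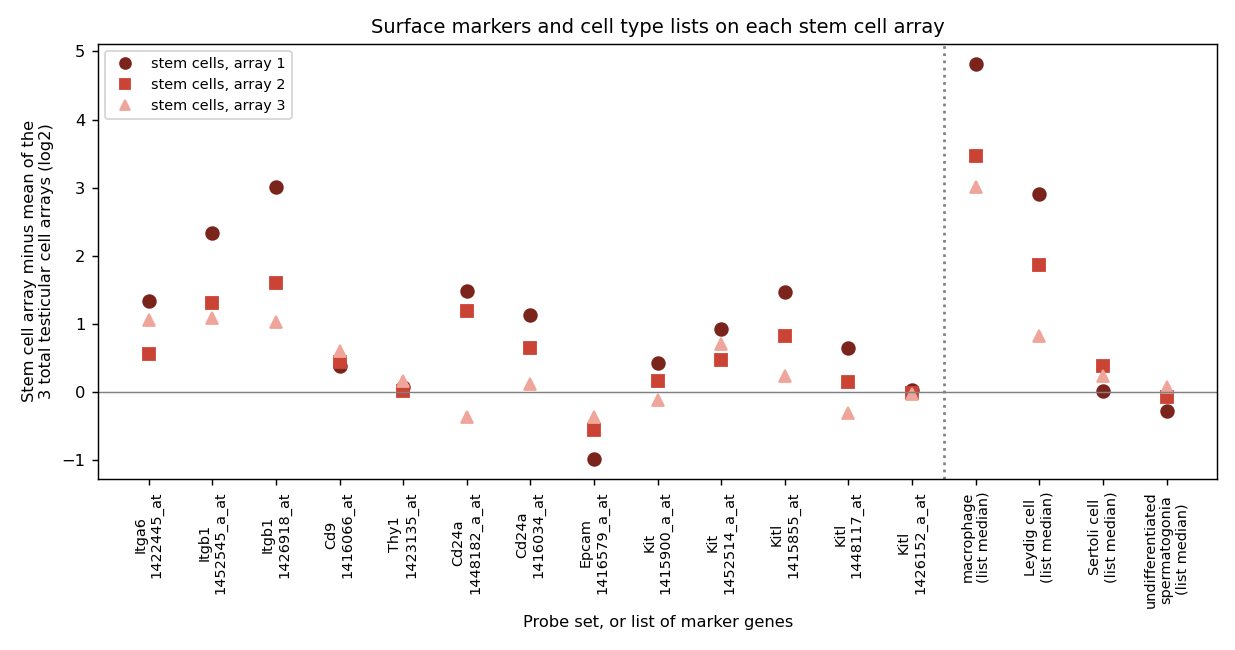
Difference of each SSC array from the mean of the 3 TTC arrays (log2), for the 13 probe sets above background on every array and, right of the dotted line, for the median gene of 4 marker lists. Itgb1, Cd24a and Kitl fall off from array 1 to array 3 as the macrophage and Leydig cell medians do, while Cd9 and Thy1 lie close together on all 3 arrays.

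Lists for further cell types showed less. In the Sertoli cell list, source of Kitl, 1 of 8 measured genes rose by limma, Clu (2.02, adjusted p = 0.0234), and 0 fell. At an unadjusted p under 0.05, 2 were higher, Clu and Inha (1.10, adjusted p = 0.0590), and 0 lower. Medians were 0.03, 0.38 and 0.24 on SSC arrays 1, 2 and 3. The summed signal was 994 to 2409 against 430 to 524 in TTC, most of it from Clu alone (mean log2 level 10.29 and 8.27). In the other 7 lists 0 genes passed by limma, whereas 1 mast cell, 1 T cell and 1 myoid gene were higher and 1 epithelial gene was lower at an unadjusted p under 0.05. Mast cells, which carry Kit, had a median difference of 0.17 over 6 genes, a summed signal of 35.2 to 37.4 against 31.1 to 37.0 in TTC, and Fcer1a below background on every array. T cells, which carry Thy1 in mice, had a median of 0.00 over 5 genes and a summed signal of 42.5 to 74.2 against 54.4 to 71.8 in TTC. Above background on all 6 arrays were 2 of 6 mast cell, 3 of 5 T cell, 1 of 5 endothelial, 1 of 2 erythroid and 2 of 5 epithelial genes. A change in these 5 lists could therefore be missed. Medians were 0.05 for 5 peritubular myoid, −0.02 for 5 endothelial, −0.06 for 2 erythroid, −0.03 for 5 epithelial and −0.13 for 5 meiotic and haploid germ cell genes. The summed signal of that last list was 16760 to 19300 in the SSC arrays and 17690 to 19490 in the TTC arrays, where Prm1 differed by −0.05 and Tnp1 by −0.13.

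The label of the stem cell group was set against its own markers as well. Of 9 measured markers of undifferentiated spermatogonia 0 rose and 0 fell by limma, beside 1.63% and 0.137% of all 12393 genes. At an unadjusted p under 0.05, 0 were higher and 1 was lower, beside 11.8% and 13.1% of all genes. Their median was −0.13, beside −0.05 over all genes. Id4, an inhibitor of differentiation, read 6.78, 7.87 and 7.69 in the SSC arrays against 7.95, 8.05 and 7.98 in TTC (difference −0.55, adjusted p = 0.232). Utf1 differed by 0.32 (adjusted p = 0.390), and Lin28a was below background on all arrays. Zbtb16, Sall4, Bcl6b and Pou5f1 were also dim, at 2.15 to 3.31 over all arrays, so a change in them could be missed. Of 5 markers of differentiating spermatogonia 0 passed and 1, Stra8, was higher at an unadjusted p under 0.05 (median 0.14). Dmrtb1 in this list differed by −0.18.

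The 8 gene lists held partners of the members, further sorting antigens, and the spermatogonial markers above. Together, 5 of their 80 measured genes rose (6.25%, beside 1.63% of all 12393 genes, each gene taken by its brightest probe set). Of the 80, 0 fell (beside 0.137%). The count of 5 became 9 and 11 without SSC array 2 or 3, and 0, 2 and 1 without TTC arrays 1, 2 and 3. Tetraspanins and partners of Cd9 held 3 of the 5. Cd53, a tetraspanin of leukocytes, was 7.61, 6.34 and 5.59 in the SSC arrays against 2.73, 3.06 and 2.52 in TTC (difference 3.74 ± 0.43 SE, adjusted p = 0.00642). Cd81, a widely expressed tetraspanin, gave 8.54, 7.15 and 7.08 against 5.76, 5.71 and 5.33 in TTC (1.99, adjusted p = 0.0391), and Tspan4 6.70, 5.72 and 5.08 against 3.62, 4.02 and 4.10 in TTC (1.92, adjusted p = 0.0421). All 3 were highest on SSC array 1. The integrin-associated Cd151 (1.10, adjusted p = 0.0653, with 0.15 to 1.14 over its 6 probe sets) and Igsf8, a direct partner of Cd9 (1.18, adjusted p = 0.0758), did not pass. Of 12 measured genes in this list 9 did not pass, and its median was 0.47.

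The other 2 of the 5 belong to further antigens used in sorting, of which 8 were measured. They are Ptprc, the leukocyte antigen CD45, at 6.30, 4.13 and 4.69 against 1.94, 2.33 and 2.25 in TTC (difference 2.87, adjusted p = 0.0280), and B2m, the light chain of class I molecules, at 11.20, 9.63 and 9.06 against 6.57, 7.05 and 6.16 in TTC (3.37, adjusted p = 0.0145). Sorts for stem cells usually keep cells low in either, and both were highest on SSC array 1. Gfra1 (−0.17) and Ret (−0.02), the receptor components for GDNF, Epha2 (0.13) and Mcam (−0.19) did not pass, and neither did Adgra3 (0.44, adjusted p = 0.144) or Cd34. Values of Gfra1, Ret, Epha2 and Mcam were 1.92 to 2.94 over all arrays, close to background, where a change could be missed.

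No integrin chain that pairs with Itgb1 or Itga6 passed among 9 measured by limma, with 1 higher and 1 lower at an unadjusted p under 0.05 (median −0.10). Itgav, the alpha chain of vitronectin receptors, was 4.70, 3.02 and 3.26 in the SSC arrays and 2.18, 2.70 and 2.11 in the TTC arrays. The groups were separate and array 1 was far above the rest (difference 1.33, adjusted p = 0.104). Its 3 probe sets differed by −0.02 to 1.33, and this one was the highest. The collagen-binding chain Itga2 read lower in the SSC arrays, at 3.50, 4.39 and 4.41 against 5.27, 4.68 and 5.02 in TTC (−0.89, adjusted p = 0.117), and Itga3 differed by −0.27. Of 13 laminins and other basement membrane ligands 0 passed by limma, while 3 were higher and 1 lower at an unadjusted p under 0.05 (median 0.18), and their brightest genes, Lamb3 and Lama2, differed by −0.83 and −0.19.

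Among 8 measured catenins and partners of Cdh1 and Epcam 0 passed by limma, with 2 higher and 1 lower at an unadjusted p under 0.05 (median 0.18). Ctnnb1, the beta-catenin that binds cadherin tails, read 9.03, 8.36 and 8.17 against 7.44, 7.75 and 7.54 in TTC, above in every SSC array (0.95, adjusted p = 0.0670). Cdh2, the N-cadherin of germ and Sertoli cells, read 5.94, 6.94 and 6.45 against 7.08, 7.19 and 7.09 in TTC, below in every SSC array (−0.68, adjusted p = 0.142). Of 16 genes of Kit signalling 0 passed by limma, with 3 higher and 2 lower at an unadjusted p under 0.05 and a median of 0.09. The brightest were Cbl, a ubiquitin ligase that removes active Kit, at −0.52, and the adaptor Sh2b3, at −0.63.

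**Figure D4:**
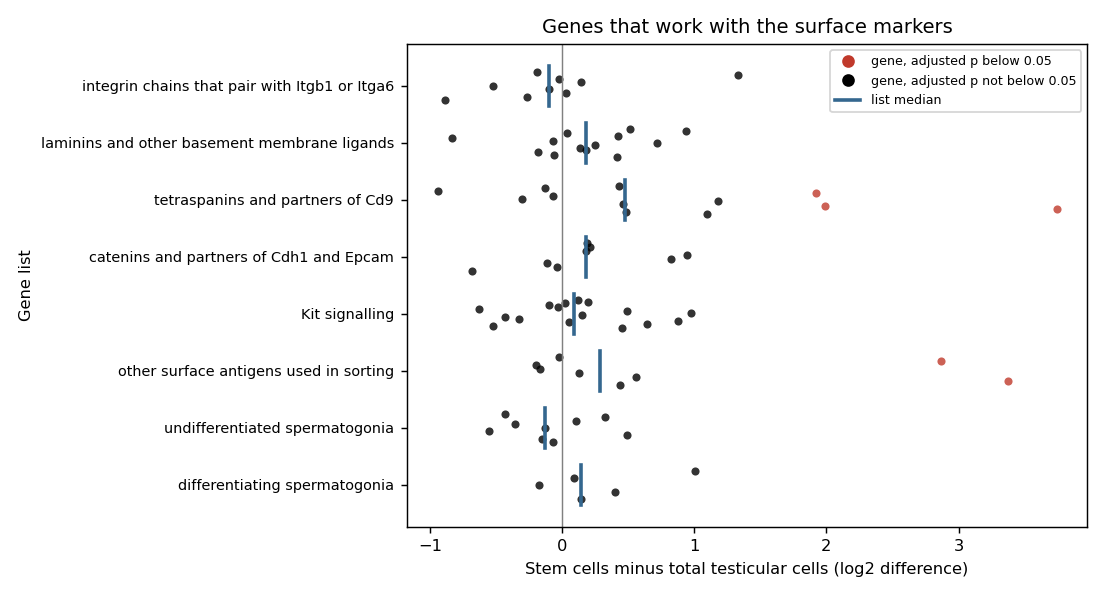
Log2 difference of each measured gene in 8 lists, which hold partners of the surface markers, further sorting antigens and spermatogonial markers. There is 1 point a gene, red where the adjusted p was under 0.05, and blue bars give list medians. The 5 red points are Cd53, Cd81 and Tspan4 among tetraspanins and Ptprc and B2m among sorting antigens, and list medians lie between −0.13 and 0.47.

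For 8 member probe sets whose values spanned over 1 log2 unit, the genes with the most similar profile over the 6 arrays were found by the root mean square difference of centred log2 values. Itgb1 1452545_a_at lay nearest to Ssr4 (0.08), Actr3 (0.08) and Man1a (0.08), and 1426918_at to Glud1 (0.10), Pnp (0.10) and Mfsd1 (0.12). Itga6 1422445_at lay nearest to Aplp2 (0.10), Itsn1 (0.12) and Slc30a2 (0.13). Kit 1452514_a_at was closest to Marveld1, Csk and Smarcd3 (0.05 each), and Kitl 1415855_at to Morf4l2 (0.04), Mdh2 (0.05) and Hspa8 (0.06). For Cd24a the nearest were Mrap (0.10), Tcf21 (0.12) and Acaa2 (0.14) on 1448182_a_at but Mob1a, Hacd3 and Mcl1 (0.05, 0.06 and 0.06) on 1416034_at. Epcam lay nearest to Rbm14, Rbl2 and Mtbp (0.05, 0.05 and 0.06), each of which was also lower (−0.64, −0.61 and −0.62, none past the threshold). None of the nearest genes of the bright Itgb1 probe set 1426918_at passed, and of those of 1452545_a_at Man1a did (1.58, adjusted p = 0.0495).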

How the data were processed

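Total RNA of 6 testis cell samples was hybridised to 1 Affymetrix array each. The authors deposited 1 log2 value per probe set and array, and the log2 scale is read from the values themselves. MAS5 and RMA both appear in the submitters' processing notes, without saying which of them made the values. The deposited instrument records, other text settings of each array, gave fluidics rounds (starts under 15 minutes apart) and modules. Depth has no counterpart on arrays, where signal over background and the 6 arrays limit the precision.

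Groups came from sample titles. Of 22690 probe sets, 64 controls were left out and 22626 fitted with limma 3.58.1 in R 4.3.3 (two-sided, with an intensity trend, Benjamini-Hochberg adjustment over all of them and a threshold of 0.05, on 4 residual degrees of freedom plus 5.21 from the prior). Differences are SSC minus TTC. In the annotation 20380 probe sets had 1 gene, 691 several and 1555 none. In lists, the probe set with the highest mean stands for a gene. The members and lists were chosen with earlier results of these data known. The 8 lists of partners, sorting antigens and spermatogonial markers held 96 entries (80 measured). The 10 marker lists, for macrophages, mast cells, T cells, Leydig, Sertoli, myoid, endothelial, erythroid, epithelial and late germ cells, held 61 (57 measured). Named genes were all member probe sets, up to 4 genes of a list past the threshold or else its 2 brightest, and the 3 nearest profiles. Itgav, Cd151, Igsf8, Gfra1, Ret, Epha2, Mcam, Adgra3, Cd34, Lin28a, Zbtb16, Sall4, Bcl6b, Pou5f1, Inha and Fcer1a were named after their values were seen. Same-numbered samples deviated together at r = −0.01, 0.01 and 0.30 over probe sets, so the numbers were not taken as pairs. Alternatives were other scalings, a filter on dim probe sets, blocks, variance models, thresholds and leaving out each array. The fit was tested on simulated data.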

Additional observations from a re-analysis of the deposited data

How the results depend on the processing

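With all arrays, 1 member probe set and 1 member gene by its brightest probe set were higher and 0 lower, 5 genes of the lists were higher and 0 lower, and 316 of all probe sets were higher and 34 lower. In the same order of higher counts, member probe sets, member genes, list genes and all probe sets came to 4, 3, 11 and 1200 with the fluidics round as a block, with 1 list gene and 84 of all probe sets lower. With the replicate number as a block they came to 4, 2, 11 and 1065, with 196 of all lower, and Itga6 1422445_at (adjusted p = 0.0213), Itgb1 1426918_at (0.0140) and Kit 1452514_a_at (0.0491) passed, although the numbers do not pair the samples. They came to 2, 1, 9 and 853 with array weights, with 148 of all lower. Centring on hybridization controls lowered the median of all differences by 0.17 and gave 2, 1, 7 and 844 higher, with 3 list genes and 487 of all probe sets lower. Centring on the median lowered it by 0.11 and gave 363 of all probe sets higher and 91 lower, so that 80.0% of calls were higher, against 63.4% with the hybridization controls and 90.3% as deposited. Without an intensity trend the counts were 0, 0, 2 and 119, with 6 of all lower. By unadjusted p, 8 member probe sets and 4 member genes were higher there, beside 2524 of all probe sets higher and 2928 lower. At an adjusted p under 0.01 in the main fit the counts were 0, 0, 1 and 53, with 0 lower. Quantile normalization left 0 member probe sets and 0 member genes, with Itgb1 1452545_a_at at 1.54 (adjusted p = 0.0566). At an unadjusted p under 0.05, 7 and 3 were higher, beside 2443 of all probe sets higher and 2773 lower. The fluidics module as a block, with 1 residual degree of freedom, compares SSC array 2 with TTC array 3 alone, so its calls were not read. An ordinary unmoderated test gave 0 calls of every kind. At an unadjusted p under 0.05 it had 7 member probe sets higher, beside 1792 of all probe sets higher and 1801 lower. Asking also for a log2 difference of 1 or more left 22 of all probe sets lower. Taking the mean over a gene's probe sets gave 0 member genes and 3 list genes higher. By unadjusted p, 4 member genes were higher and 1 lower there, and the share of all genes was not counted. Leaving out each array in turn gave 0 to 5 member probe sets higher and 0 to 1 lower, 0 to 3 member genes higher and 0 to 1 lower, 0 to 11 list genes higher and 0 to 2 lower, and 36 to 1365 of all probe sets higher and 0 to 943 lower. The lowest of the higher counts each came without a TTC array and the highest without SSC array 3, where 5 member probe sets rose and Epcam fell. The round block also leaves SSC array 3 out of the comparison, so its counts are not separate from these. The cause of these changes in count was not tested. Among 350 values of single member probe sets under alternatives, 305 kept direction and side of the threshold, 7 lost the call, 16 gained it and 22 changed sign, all 22 near 0 and without a call. Signs changed with hybridization control centring for Itgb1 1426920_x_at (−0.0605), Thy1 (−0.0768), Cdh1 (−0.13), Kit 1415900_a_at (−0.0042) and Kitl 1448117_at (−0.0010), and with median centring for Itgb1 1426920_x_at (−0.0067), Thy1 (−0.0231) and Cdh1 (−0.0759). They changed with the round as a block for Itga6 1422444_at (0.0346) and Kitl 1426152_a_at (0.0276), with the module as a block for Kitl 1415854_at (0.11) and with array weights for Kitl 1426152_a_at (0.0020). Leaving out 1 array gave ranges of −0.24 to 0.12 for Itga6 1422444_at, −0.0603 to 0.0245 for Itgb1 1438119_at, −0.0536 to 0.0878 for Cdh1, −0.0776 to 0.40 for Kitl 1448117_at and −0.0482 to 0.0683 for Kitl 1426152_a_at. Signal at or near background limits Cdh1, Thy1, 4 Itgb1 probe sets, Cd24a 1437502_x_at, Itga6 1422444_at, and Kitl 1415854_at and 1426152_a_at.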
